A study of Mus musculus with 16 samples.

Results

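Th2 cells of the mesenteric lymph node (MLN) whose TCR was shared by at least 1 other sequenced cell of the same mouse were compared with MLN Th2 cells whose TCR was found once. The cells came from 2 female IL-4eGFP reporter mice (4get/C57BL/6), both 13 weeks old and both given 500 larvae of the helminth Nippostrongylus brasiliensis 10 days earlier, and no uninfected mouse is part of the comparison. From each mouse 5000 CD4+IL-4eGFP+ cells were sorted from the MLN and 5000 from the perfused lung, and each of the 4 cell suspensions gave 1 gene expression and 1 TCR library. In this reporter eGFP is translated from the Il4 message, so that the gate collects cells that transcribe Il4, follicular helper-like and innate-like cells included, whether or not they secrete the cytokine.

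A cell was used when it had over 500 unique molecular identifiers (UMIs, each standing for 1 captured RNA molecule), over 500 genes, under 7% mitochondrial UMIs and both a productive TCR alpha (TRA) and TCR beta (TRB) contig. Cells of a mouse were put in 1 clone when the V segments, J segments and CDR3 nucleotides of all their productive chains were the same, and clones were counted over lung and MLN together. Of 4714 such cells in the 4 libraries, 3216 were MLN cells, 2462 of mouse 1 and 754 of mouse 2. In mouse 1, 730 of them (29.65%, exact 95% binomial interval 27.85 to 31.5%) belonged to clones of 2 or more cells, here called expanded, and 1732 to clones of 1 cell. In mouse 2 there were 98 expanded cells (13%, 10.68 to 15.61%) and 656 cells of single-cell clones. These intervals cover counting error only, and a clone seen once is single among the sequenced cells, since more of its cells may have stayed in the animal. A cell with a missed or additional chain is also parted from its clone by this rule. By the TRB chain alone, which can also join different clones, 913 MLN cells of mouse 1 and 208 of mouse 2 were expanded.

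A naive T cell that meets its antigen in a lymph node divides, and its daughter cells keep the same TCR, whose CDR3 loops are encoded at the joints of the rearranged V, D and J segments. The MLN drains the small intestine, which N. brasiliensis reaches after passing through the lung. Th2 cells are programmed by the transcription factor GATA3 and make IL-4 and IL-13, while CCR7 guides T cells into lymph nodes and the sphingosine phosphate receptor S1PR1 lets them leave.

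The receptors below belong to the largest clones among the MLN cells and show what made 2 cells the same clone. They are CDR3 sequences copied from the deposited contigs, and capitals mark the bases that match neither the usual start of CDR3s with the same V segment nor the usual end of those with the same J segment in these libraries. The largest clone of mouse 1 held 10 MLN and 5 lung cells and carried 2 TRA chains and 1 TRB chain. A further clone of mouse 1 held 6 MLN and 2 lung cells, and the largest of mouse 2 by its MLN cells held 4 MLN cells and no lung cell. The last line is the most frequent TRAV11 to TRAJ18 chain, the rearrangement of invariant NKT cells, which was carried by 25 of the 65 MLN cells with that rearrangement.
Mouse 1, largest clone, TRA (TRAV21-DV12, TRAJ48): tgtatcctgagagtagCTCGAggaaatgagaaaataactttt
Mouse 1, largest clone, TRA (TRAV6-7-DV9, TRAJ34): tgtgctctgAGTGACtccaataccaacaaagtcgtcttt
Mouse 1, largest clone, TRB (TRBV13-1, TRBJ2-5): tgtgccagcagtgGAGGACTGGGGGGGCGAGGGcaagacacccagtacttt
Mouse 1, further clone, TRA (TRAV13D-2, TRAJ22): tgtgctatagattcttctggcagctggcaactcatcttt
Mouse 1, further clone, TRB (TRBV1, TRBJ1-4): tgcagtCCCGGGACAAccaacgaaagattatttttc
Mouse 2, largest clone, TRA (TRAV19, TRAJ37): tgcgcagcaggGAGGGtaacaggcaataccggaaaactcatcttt
Mouse 2, largest clone, TRB (TRBV13-2, TRBJ2-7): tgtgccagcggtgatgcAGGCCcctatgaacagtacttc
Invariant TRA (TRAV11, TRAJ18): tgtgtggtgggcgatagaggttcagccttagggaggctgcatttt

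Most expanded clones were small. Of the 348 in mouse 1, 260 had 2 cells, 67 had 3 to 4 and 21 had 5 or more, and of the 57 in mouse 2, 50 had 2, 5 had 3 to 4 and 2 had 5 or more. Lung cells were part of 105 of these clones in mouse 1 and of 21 in mouse 2. The invariant chain was carried by 45 of 1732 cells of single-cell clones in mouse 1 (2.60%) and by 20 of 656 in mouse 2 (3.05%), but by 0 of 730 and 0 of 98 expanded cells, which allows shares of up to 0.411% and 3.06% (exact 95% upper limits 0.504% and 3.69%). With 98 cells a difference between the classes was thus not detectable in mouse 2. Because the TCR made the classes, these numbers are a description and carry no test.

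The classes were alike in depth, with a median of 4905 UMIs per expanded and 5017.5 per single-cell clone cell in mouse 1, and 4912.5 and 4979.5 in mouse 2. Summed over cells, the expanded class of mouse 2 held 539097 UMIs, against 3938791 to 10334677 for the other class and 4178090 for the expanded class of mouse 1, so mouse 2 limits what can be seen. Levels are given here in CPM, a gene's UMIs divided by all UMIs of a clone class in 1 mouse and scaled to the same total. The 11 pan-T cell genes summed to between 8657 and 9486 CPM in the 4 sums. Markers of other cells summed to less than the pan-T cell genes but were not absent, with 284 to 377 for 15 B cell genes, 281 to 315 for 17 myeloid genes and 3.73 to 9.24 for the CD8 genes. Ms4a1, Ebf1, Itgam, Itgax and S100a9 were at 0 in every sum, so other members carried the B cell and myeloid sums. The paper describes a small MLN cluster of these cells that contains RNA of Cd74, C1q, lysozyme and Cd209b. Genes of pancreas and epithelium summed to 9.86 and 12.6 in mouse 1 but to 67.2 and 120 (expanded and single-cell clones) in mouse 2. None of the tested B cell, myeloid, CD8, pancreas and epithelium genes was called in the comparison below, and erythroid and platelet genes had 0 UMIs in every sum. Cells with productive chains beyond 1 TRB and 2 TRA, which can be doublets, were 2.88% of expanded and 9.18% of single-cell clone cells in mouse 1, and 9.18% and 8.08% in mouse 2.

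Fold changes are log2 differences of expanded minus single-cell clones from edgeR's quasi-likelihood test on the 4 sums with the mouse as a block, with p-values adjusted by Benjamini-Hochberg over all genes tested. Each SE was derived from the fold change and the F value of that test. It carries mostly a spread pooled over all genes, and does not measure how far the 2 mice lay apart for a gene. Because sums over cells were compared, these fold changes do not tell more cells with a transcript from more transcript per cell. The share of cells with a UMI, counted apart from them, is given for some genes below and did not always move with the fold change. At an adjusted p under 0.05, 75 of 9919 genes were called (0.756%), 44 higher (0.444%) and 31 lower (0.313%) in expanded clones, and 532 had an unadjusted p under that limit. The 2 mice moved the same way for 72 of the 75, the exceptions being Ccl1, Plac8 and Il13, while 52.1% of all tested genes did so. The genes were called on these same 2 mice, so their agreement is no independent check. With 2 mice a single degree of freedom is left for the spread, which is then borrowed from all genes, and the count depends on that. It was 6 with DESeq2 (Akr1c18, Ccl5, Ctsw, S100a4, S100a6 and Srgn, of which Akr1c18 and Srgn were picked out only because this test called them), 24 without the largest clone of each mouse and 8 with 1 cell per expanded clone. Without the mouse block only Ccl5 was called. Fits given below as without mouse 1 or without mouse 2 left out only the MLN sums of that mouse. They took in the lung sums of both mice, so that their spread came from lung and not from the MLN.

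**Figure D1:**
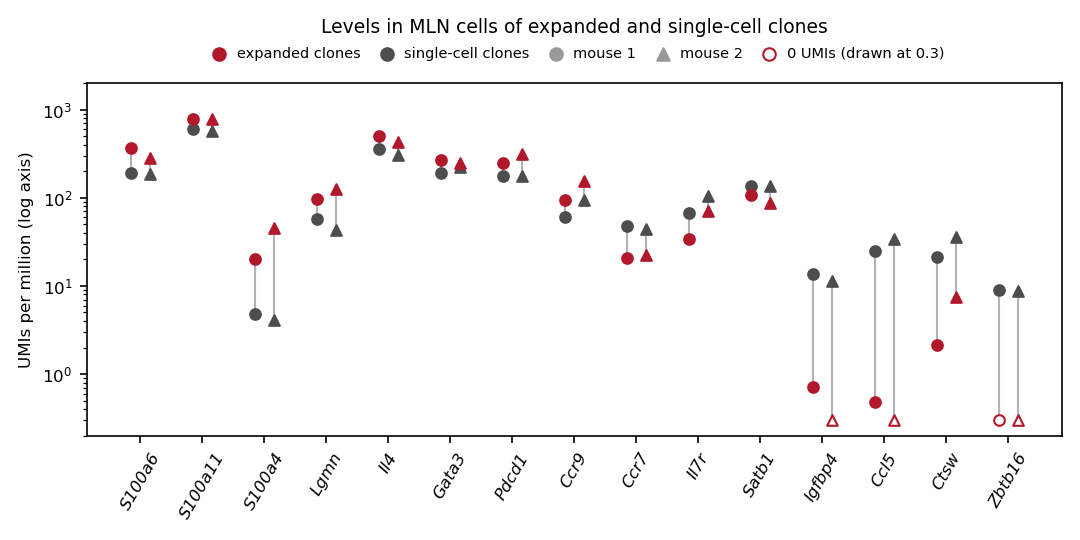
CPM (log axis) of 15 genes in MLN cells of expanded (red) and single-cell clones (grey), with circles for mouse 1, triangles for mouse 2, a line joining the classes of a mouse and open symbols for a sum with 0 UMIs, drawn at 0.3. S100a6, S100a11, S100a4, Lgmn, Il4, Gata3, Pdcd1 and Ccr9 were higher and the 7 genes from Ccr7 to Zbtb16 lower in expanded clones of both mice.

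The genes that rose in expanded clones were led by effector genes. Of 28 tested members of a Th2 effector list, 11 rose and 0 fell, and the median log2 fold change was 0.36 against -0.0039 for all genes. Part of this list was taken from genes that the study had picked in these samples, so it is not independent evidence of a direction. S100a6, a calcium-binding protein of activated cells (chr3:90612882-90624181, plus strand, mm10), was at 369.8 CPM in expanded and 189 in single-cell clones of mouse 1, and at 280.0 and 185 in mouse 2. Both expanded sums lay above both others, and the log2 fold change was 0.83 ± 0.081 (SE, adjusted p = 9.14e-15). The neighbouring S100a4 (chr3:90603771-90606045, plus strand), which marks motile and effector T cells, was at 19.97 and 4.76 in mouse 1 and at 44.8 and 4.08 in mouse 2. Its log2 fold change of 2.49 ± 0.30 (adjusted p = 1.5e-10) rested on 33 and 10 expanded cells with a UMI. S100a11, from the same family, was at 784 and 606 in mouse 1 and at 773 and 571 in mouse 2 (log2 fold change 0.38 ± 0.057, adjusted p = 3.3e-07). Expanded cells were again above in both mice, but by a smaller factor than for S100a4.

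Other called members of this list had smaller or less even changes. Adam8, a metalloprotease of effector T cells, was at 32.0 and 14.6 in mouse 1 and at 35.5 and 15.6 in mouse 2 (log2 fold change 1.13 ± 0.23, adjusted p = 0.000566), and only 8 expanded cells of mouse 2 held its UMIs. Itgb1, the integrin beta 1 chain, was at 147 and 117 and at 220.3 and 135 (0.44 ± 0.10, adjusted p = 0.00707). Crip1, a small LIM domain protein, was at 506 and 422 and at 485 and 377 (0.29 ± 0.067, adjusted p = 0.00766). In clones without lung cells the values of Itgb1 and Crip1 were 0.11 and 0.04 (adjusted p = 1.00 for each), and without the largest clone of each mouse neither was called (adjusted p = 0.131 and 0.187). Rgs16, Lgals1 and S100a10, which the naming rule did not choose and which are given to complete the list, rose by 1.27, 0.27 and 0.23. Plac8, an effector gene also used as a marker of Th2 cells in allergic airways, split the mice, with 226 in expanded and 115 in single-cell clones of mouse 1 but 74.7 and 119 in mouse 2. Il13, the cytokine that drives worm expulsion, did the same with 24.5 and 3.21 in mouse 1 but 18.7 and 55.4 in mouse 2, from 17 and 2 expanded cells. Their calls (log2 fold changes 0.58 and 1.05, adjusted p = 0.000691 and 0.0494) thus follow mouse 1, and both reverse without it (-0.69 and -1.59). Il1rl1, which encodes the IL-33 receptor, was at 18.04 and 7.58 and at 16.8 and 15.1 and did not pass (adjusted p = 0.114), and Il5 had 5 and 0 UMIs in expanded cells and was not tested.

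The count for the effector list was sensitive to the cells taken. It was 5 risen and 1 fallen without mouse 1, 4 risen without the largest clone of each mouse, 2 with 1 cell per expanded clone, 2 with DESeq2 and 0 without the mouse block, and its median stayed above that of all genes at 0.11 when only clones without lung cells were taken (5 rose and Vim fell).

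Genes of Th2 identity changed in both directions, with 3 of 11 higher, 1 lower and a median of 0.05. Il4 (chr11:53602982-53618669, minus strand), whose transcription also set the sort gate of both classes, was at 499 in expanded and 356 in single-cell clones of mouse 1 and at 427 and 303 in mouse 2. The ratio was alike in the mice, and Il4 rose by 0.48 ± 0.069 (adjusted p = 1.75e-07). A UMI of Il4 was found in 74.7% of expanded and 69.3% of single-cell clone cells in mouse 1, and in 77.55% and 63.6% in mouse 2. Gata3, the master regulator of the lineage, was at 265 and 188 in mouse 1 and at 244 and 221 in mouse 2 (0.37 ± 0.084, adjusted p = 0.00549), the rise being smaller in mouse 2. Maf, a transcription factor that drives Il4, was at 298 and 257 and at 474 and 314 (0.34 ± 0.075, adjusted p = 0.00334). Il4ra, the IL-4 receptor alpha chain, fell by 0.71 (26.9 and 42.3 in mouse 1, 22.4 and 41.4 in mouse 2, adjusted p = 0.0314). Stat6, which carries the IL-4 receptor signal, stood at 51.7 and 53.4 and at 52.3 and 62.0 and was not called. Neither Gata3, Maf nor Il4ra was called without the largest clone of each mouse (adjusted p = 0.189, 0.189 and 0.247), whereas Il4 was (0.00319). With 1 cell per expanded clone Il4 was at 0.51 and not called (adjusted p = 0.0716). DESeq2 gave 0.48 and did not call it either (adjusted p = 0.0617).

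Of 24 follicular helper genes 4 rose and none fell, with a median of 0.09 and 14 members higher in both mice. Over all 9919 genes tested, 44 rose (0.444%) and 2727 were higher in both mice. Pdcd1, which encodes the inhibitory receptor PD-1, was at 249 and 177 in mouse 1 and at 312 and 176 in mouse 2, clear of overlap, and rose by 0.59 ± 0.085 (adjusted p = 9.8e-08). Sostdc1, a secreted antagonist of BMP and Wnt signals, was at 84.9 and 60.2 and at 153 and 82.2 (0.62 ± 0.13, adjusted p = 0.00122). Its share of cells with a UMI was 6.99% in expanded and 5.5% in single-cell clones of mouse 1, but 4.08% and 5.79% in mouse 2. Ascl2, a transcription factor of follicular helper cells, was at 11.1 and 6.12 and at 35.5 and 8.93 (1.25 ± 0.31, adjusted p = 0.0161). In mouse 2 the Sostdc1 UMIs came from 4 cells and those of Ascl2 from 8, and Angptl2, a secreted protein, rose by 0.90 from as few UMIs (106 and 17, adjusted p = 0.0487). Only Pdcd1 of this list was called without mouse 1, without mouse 2 or without the largest clone of each mouse, and none with 1 cell per expanded clone, with DESeq2 or without the mouse block. Sostdc1 was at a log2 fold change of 0.31 in clones without lung cells (adjusted p = 0.859) and of 0.14 with 1 cell per clone (adjusted p = 1.00). The genes that define the lineage did not pass. Cxcr5, the receptor for the B cell follicle, was at 149.6 and 141 and at 172 and 117 (0.21, adjusted p = 0.901), Bcl6 at 32.7 and 30.3 and at 33.6 and 34.5, and Il21 at 13.7 and 11.3 and at 24.3 and 9.19. Among 19 costimulatory and inhibitory receptors, Pdcd1, Cd5 and Tigit rose and none fell (median 0.18). CD5, which dampens TCR signals, was at 634 and 519.8 in mouse 1 and at 614 and 496 in mouse 2 (0.28 ± 0.061, adjusted p = 0.00272), and Tigit at 314 and 259 and at 272 and 209 (0.30 ± 0.079, adjusted p = 0.0383). Neither Cd5 nor Tigit was called without mouse 1, without mouse 2 or without the largest clones.

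Ccr9, the chemokine receptor that guides T cells to the small intestine, was the only called gene of 12 with roles in gut homing and residence. It was at 94.3 and 59.99 in mouse 1 and at 155 and 95.2 in mouse 2 and rose by 0.66 ± 0.12 (adjusted p = 0.000184). Cells with a UMI of Ccr9 were 13.7% of expanded and 10.3% of single-cell clone cells in mouse 1. In mouse 2 they were 13.3% and 13.7%, so the share was not higher there. Without mouse 1, 0 of 14 genes were called and the list's median turned from 0.14 to -0.21, while without mouse 2 there were 3 (Ccr9, with Rgs1 and Cxcr6, named to complete the count). The integrin chains that pair for gut entry were not called, with Itga4 at 73.4 and 86.3 and at 108 and 111, and Itgb7 at 251 and 238 and at 282 and 245.

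Genes of lymph node recirculation and of central memory cells were lower where they moved. Of 18, 4 fell and none rose, and the median was -0.16, but without mouse 1 it was 0.00, with 0 fallen. Ccr7 was at 20.9 in expanded and 47.4 in single-cell clones of mouse 1 and at 22.4 and 44.2 in mouse 2. This is less than the single-cell clones in both mice, and Ccr7 fell by 1.15 on the log2 scale (SE 0.19, adjusted p = 7.27e-06). Il7r, the receptor for the survival cytokine IL-7, was at 33.7 and 67.0 and at 70.9 and 106 (fell by 0.88, SE 0.15, adjusted p = 2.4e-05). The expanded cells of mouse 2 were thus slightly above the single-cell clones of mouse 1, and the change was -0.57 (adjusted p = 0.0546) once cells with the invariant chain were left out. Satb1, a chromatin organiser, fell by 0.45 (106 and 137, 87.7 and 134.5, adjusted p = 0.0185). Igfbp4, which binds insulin-like growth factors and is expressed by naive T cells, had 3 UMIs against 139 in mouse 1 and 0 against 44 in mouse 2, at least 2.01-fold lower there with 3 UMIs taken as the floor of a sum.

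Receptors and factors of lymph node exit did not pass the test, and the mice disagreed on them. Klf2, the factor that drives S1pr1, was at 28.4 and 58.0 in mouse 1 but at 76.5 and 48.5 in mouse 2 (-0.52, adjusted p = 0.346). S1pr1 was at 39.7 and 44.1 and at 74.7 and 40.8. Tcf7, a factor of self-renewing T cells, was at 578 and 592 and at 622 and 585, and Cd27 at 337 and 317 and at 317 and 280.5. Both stayed within a narrow range in all 4 sums.

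**Figure D2:**
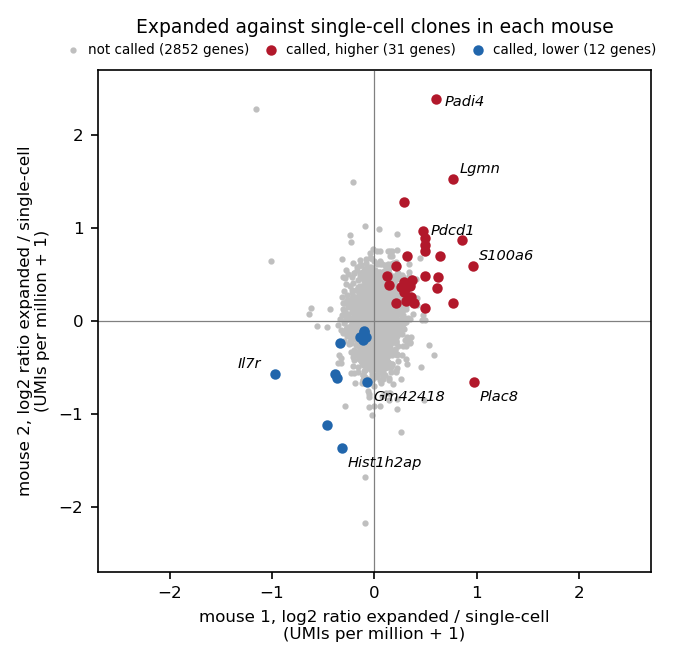
Log2 ratio of expanded to single-cell clones (CPM + 1) in mouse 1 (x) and mouse 2 (y) for the 2895 genes whose mean reached 50 CPM, with 31 genes called higher in red, 12 called lower in blue and 2852 not called in grey. All but 1 of the coloured points lie in the quadrants where both mice moved the same way, the exception being Plac8.

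Genes of NKT and other innate-like cells were among those with the lowest levels relative to single-cell clones, as was Igfbp4 above. Of 15 tested, 6 fell and 1 rose, with a median of -1.38. Without mouse 1 only Ccl5 and Ctsw fell and none rose, with 1 cell per expanded clone 2 fell and 1 rose (median -0.12), and with equal numbers of cells 3 fell and 1 rose (median 0.16). Ccl5 (chr11:83525778-83530518, minus strand), a chemokine of memory and NKT cells, had 2 UMIs in expanded and 259 in single-cell clones of mouse 1 (0.481 and 25.2 CPM), and 0 and 134 in mouse 2, where it was at least 6.11-fold lower (adjusted p = 3.59e-18). Ctsw, a cathepsin of cytotoxic cells, was at 2.17 and 21.4 and at 7.47 and 35.5 (fell by 3.02, SE 0.35, adjusted p = 2.65e-11). Zbtb16 (chr9:48654297-48836222, minus strand), which encodes the NKT factor PLZF, was at 0 in both expanded sums and at 9.04 and 8.68 in single-cell clones, at least 12.5-fold and 1.55-fold lower. Tbx21 and Xcl1, a T helper 1 factor and a chemokine, were also at 0 in expanded cells, with 3.11 and 3.01 in single-cell clones of mouse 1 and 5.62 and 5.87 in those of mouse 2. They were at least 4.31-fold and 4.18-fold lower in mouse 1. In mouse 2 these bounds were only 1.003-fold and 1.048-fold, so a fall was not resolved there.

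The invariant chain moved with this list. Zbtb16 was at 278 and 326 CPM in single-cell clone cells with that chain, and at 2.19 and 1.05 in the others of mouse 1 and mouse 2. Without the invariant cells 12 genes of the list were tested, 2 fell (Ccl5 and Ctsw), 2 rose (Gzmb and Nkg7, a granule protein gene named here because it completes this count) and the median was 0.00. Zbtb16, Tbx21 and Xcl1 then had too few UMIs to be tested. Ccl5 still fell (-4.10, adjusted p = 3e-06) and so did Ctsw (-1.97, adjusted p = 0.000555), and the effector list kept its count of 11 risen.

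Cell division did not separate the classes in a way that both mice shared. Cells with a UMI of Mki67 or Top2a were 14.5% of expanded and 13.7% of single-cell clone cells in mouse 1, and 18.4% and 12.7% in mouse 2. Of 30 genes of G2 and mitosis 0 were called and the median was -0.44, and of 27 S phase genes 0 were called with a median of -0.10. Without mouse 2 there were 7 fallen G2 and mitosis genes (median -0.75), and without mouse 1 there were 6 risen (median 0.38). Mki67, a marker of cycling cells, was at 44.5 and 69.9 in mouse 1 and at 50.4 and 47.7 in mouse 2 (adjusted p = 0.236). Histone genes fell, Hist1h2ap from 458 to 366 and from 834 to 323 and Hist1h2ae from 80.6 to 58.2 and from 62.0 to 28.0, but these copies share much of their sequence. Of the Hist1h2ap UMIs in expanded cells of mouse 2, 79.2% came from 1 clone and 78.6% from 1 cell. A robust fit, an alternative chosen after seeing the data, did not call the gene (adjusted p = 1.00). Without cells that had a UMI of Mki67 or Top2a neither was called, Hist1h2ap being at -0.14 and Hist1h2ae at -0.60 (adjusted p = 1.00 and 0.946).

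Other genes that the naming rule chose had diverse roles. Lgmn, an endosomal protease, was at 97.4 and 56.8 in mouse 1 and at 125 and 42.6 in mouse 2 and rose by 1.00 ± 0.14 (adjusted p = 6.34e-08). St3gal6, a sialyltransferase, was at 65.4 and 35.9 and at 87.7 and 47.5 (0.86 ± 0.16, adjusted p = 0.000106). Padi4, which converts arginine in proteins to citrulline, was at 48.6 and 31.7 and at 110.1 and 20.2 (1.17 ± 0.18), but not called by the robust fit (adjusted p = 1.00). All 3 were higher in expanded cells of both mice, which the naming rule required of genes chosen for a large rise. Of 8 regulatory T cell genes 1 rose and none fell (median 0.35). It was Ikzf2, which encodes Helios, a factor of regulatory and activated T cells (0.61, at 75.1 and 61.2 and at 134 and 54.9, adjusted p = 0.00956). Ikzf2 was not called by the robust fit (adjusted p = 0.262) or without the largest clone of each mouse (adjusted p = 0.585). With 1 cell per expanded clone it was at 0.13 and not called. Foxp3, the factor of regulatory T cells, had 3 UMIs in all expanded and 12 in all single-cell clone cells and was not tested. Stx11, a membrane fusion protein, Gsn, which severs actin, Lgals7, a galectin, Ccdc50 and Lztfl1 rose by 0.53 to 0.63. The span of Lztfl1 (chr9:123694416-123717697, minus strand) lies inside that annotated for Ccr9 on the plus strand (chr9:123678439-123784330). Among the fallen genes, Sesn3, an inhibitor of the growth kinase mTORC1, was at 92.6 and 122 and at 91.5 and 136 (-0.45 ± 0.11, adjusted p = 0.0218), and Gimap4, a GTPase of lymphocytes, at 309 and 392 and at 299 and 352.5 (-0.32 ± 0.074, adjusted p = 0.00579). Of 26 genes of early activation only Xcl1 was called, lower in expanded cells. Nr4a1, induced by TCR signals, was at 34.4 and 29.0 and at 22.4 and 32.4, and Egr2, also induced by them, at 39.5 and 31.6 and at 22.4 and 51.8, so the mice went opposite ways.

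Of metabolic and interferon genes, 10% of the glycolysis, 0% of the cholesterol synthesis and 2.63% of the interferon response genes tested were called. Over all genes tested the share was 0.756%, and genes that did not pass are not shown to be equal. Of 20 glycolysis genes, Aldoa and Tpi1 rose (0.33 ± 0.054, adjusted p = 4.4e-06, and 0.32 ± 0.081, adjusted p = 0.0252) and none fell, the list's median being 0.13. None of 20 cholesterol synthesis genes was called. Ifi27l2a was the only called gene of 38 of the interferon response, at 3385 and 3125 in mouse 1 and at 2462 and 1753 in mouse 2 (0.27 ± 0.043), and the robust fit did not call it. Isg15 was at 410.4 and 399.5 and at 114 and 140.1, so the mice differed more from each other than the classes did. Ribosomal protein genes Rps20, Rps24, Rps27a, Rpl36a and Rps16 fell by 0.12 to 0.16, and reads of such genes can be split with their pseudogene copies. Gm42418, which overlaps the ribosomal RNA repeat, fell by 0.37 with nearly all of the change in mouse 2 (9374 and 14840, against 10600 and 11170 in mouse 1). The robust fit did not call Gm42418.

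Some called genes rested on few clones, and in part on single cells. Cells of 1 clone are also not separate draws. Over the 44 risen genes, the clone with the most UMIs of a gene gave a median of 5.74% of that gene's UMIs in the expanded cells of mouse 1 (range 1.98 to 75.3%), and over 10% for 11 genes. In mouse 2, where 43 of them had a UMI in expanded cells, the median was 18% (6.42 to 100.0%), with over 10% for 31 genes. There 3 clones gave 42.0% of the S100a6 UMIs, 74.6% of those of Lgmn and 80.5% of those of Sostdc1. With 1 cell per expanded clone Lgmn was at 0.65 and not called (adjusted p = 0.663). Gzmb, a cytotoxic granule protease, was at 111 and 38.0 in mouse 1 and at 7.47 and 7.15 in mouse 2. Its 462 UMIs of mouse 1 came from 17 cells, and 1 of these cells gave 32.3%. Ccl1, a chemokine of Th2 cells taken up because of this concentration, was at 36.1 and 2.53 in mouse 1 and at 0 and 10.98 in mouse 2. In mouse 1 its UMIs in expanded clones came from 5 cells, and 1 of these cells gave 75.3%. Akr1c18, a steroid-metabolising enzyme taken up for the same reason, was at 20.5 and 3.21 and at 39.2 and 8.93, from 7 cells in mouse 1 and 1 cell in mouse 2. By contrast the S100a6 UMIs of mouse 1 came from 281 cells of 180 clones, with at most 5.27% from 1 clone. Those of Il4 came from 545 cells of 307 clones, but 1 cell gave 9.31% of them, above the median of 5.74%.

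Levels were next set out by clone size in mouse 1, over 1732, 461, 176 and 93 cells in clones of 1, 2, 3 to 4 and 5 or more. Lung cells were part of 59 of 260 clones of 2 cells, 28 of 67 of 3 to 4 and 18 of 21 of 5 or more. Clone size and presence in lung are thus not separated in these levels. S100a6 was at 189, 318, 424 and 491 CPM, so that it was higher in each larger class. S100a11 was at 606, 761, 727 and 975, and Lgals1, which encodes galectin 1, at 503, 456, 733 and 1150, its rise starting only at 3 cells. Il4 was at 356, 549, 395 and 469 and Pdcd1 at 177, 249, 225 and 287, both without a steady order. Ccr7 was at 47.4, 25.1, 12.5 and 18.2 and Il7r at 67.0, 35.0, 30.8 and 33.0, so most of the difference lay between 1 and 2 cells. In mouse 2 only clones of 1 and 2 cells held enough MLN cells (656 and 83). With expanded defined as 3 or more cells, 15 genes were called.

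**Figure D3:**
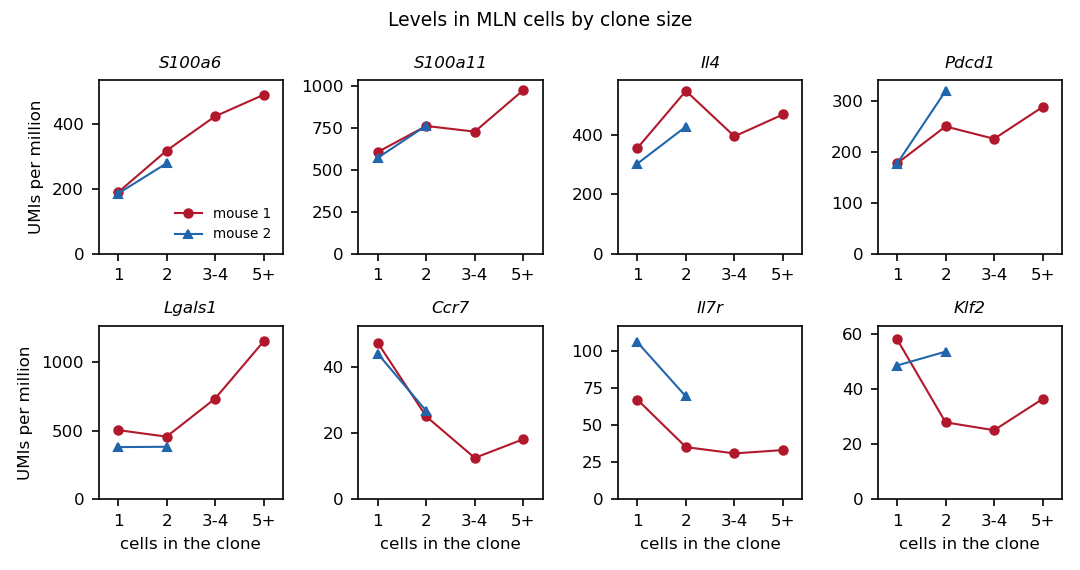
CPM of 8 genes in MLN cells by the number of cells in their clone over lung and MLN, with mouse 1 in red and mouse 2 in blue (12 and 3 cells of its larger classes not drawn). S100a6 of mouse 1 goes from 189 to 491, Lgals1 rises only from 3 cells on, and Ccr7 and Il7r fall between 1 and 2 cells in both mice.

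Expanded clones were then divided by whether they also had cells in the lung. This split is not separate from clone size, since larger clones of mouse 1 had lung cells more often. In mouse 1, 186 of the 730 expanded MLN cells (25.5%) belonged to clones with lung cells, and in mouse 2, 22 of 98 (22.4%). Of these cells, 70 and 20 were the only MLN cell of their clone. A clone without lung cells had to hold 2 or more MLN cells, so the classes also differ in this by rule. The same test on the expanded MLN cells called 8 of 7174 genes (0.112%), all higher in clones that also had lung cells, and 364 had an unadjusted p under 0.05. In all 8 both mice moved the same way, though the calls were made on these same mice. No gene was called lower. DESeq2 called 1 (Lgals1), the fit without the mouse block 2 (Anxa2 and Vim), and the fit with lung sums included, chosen after seeing the data, 31.

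Anxa2, a calcium-dependent membrane-binding protein, was at 189 in lung-shared and 58.8 in MLN-only clones of mouse 1 and at 153 and 56.8 in mouse 2 (1.62 ± 0.18, adjusted p = 0.00597). Vim, which encodes the filament protein vimentin, was at 483 and 147 and at 305 and 163 (1.5 ± 0.18, adjusted p = 0.00597). Tagln2, which stabilises actin, was at 405 and 208 and at 435 and 158 (1.08 ± 0.15, adjusted p = 0.0218). For these 3 genes both lung-shared sums lay above both MLN-only sums, but in mouse 2 the lung-shared sums held only 20, 40 and 57 UMIs. Over all expanded cells of mouse 1 and mouse 2, 1 cell gave 15.8% and 23.3% of the Anxa2 UMIs. For Vim these shares were 11.5% and 27.4%, and for Tagln2 2.75% and 9.09%. No fit with 1 cell per clone or without the largest clones was made for this split. Rrm2, a subunit of ribonucleotide reductase used in DNA synthesis, was at 131 and 40.5 in mouse 1 and at 30.5 and 12.4 in mouse 2, where it had 4 and 5 UMIs (1.65 ± 0.21, adjusted p = 0.00841). Mki67 was at 83.0 and 29.9 and at 91.6 and 37.1 (1.43 ± 0.21, adjusted p = 0.0262). Without cells that had a UMI of Mki67 or Top2a, an alternative chosen after seeing the data, 12 genes were called, 3 of them among the 8 (Itgb1, Lgals1 and Vim).

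The other 3 called genes are named to complete the count. Lgals1 was at 980.1 and 491 in mouse 1 and at 802 and 324 in mouse 2 (1.08 ± 0.12), Fabp5, a fatty acid carrier, at 77.8 and 25.2 and at 68.7 and 12.4 (1.68 ± 0.24), and Itgb1 at 226 and 116 and at 351 and 178 (0.95 ± 0.15). Lung-shared cells were above MLN-only cells in both mice for each. Of 23 effector genes tested 5 rose and none fell, all 5 being among the 8 genes above. The list's median was 0.95, against -0.0074 for all genes, of which 0.112% were called. Part of this list was taken from genes the study had picked in these lung and MLN samples, so it is not independent evidence here either. For 24 follicular helper genes the median was -0.27 with none called. S100a6 did not pass here (411 and 354, 359 and 254.5), nor did Pdcd1 (237 and 253, 137 and 368), Klf2 (48.0 and 20.9, 137 and 56.8) or S1pr1 (61.2 and 31.5, 137 and 54.4, adjusted p = 0.215).

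**Figure D4:**
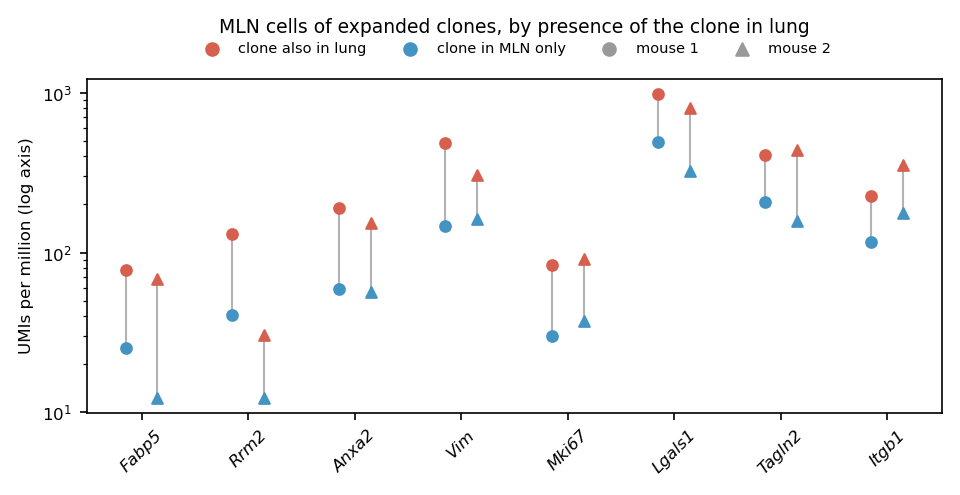
CPM (log axis) of the 8 called genes in expanded MLN cells of clones also found in lung (red) and of clones found in the MLN only (blue), with circles for mouse 1, triangles for mouse 2 and a line joining the classes of a mouse. In each mouse the lung-shared cells are above the MLN-only cells for all 8 genes.

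Whether the contrast of expanded with single-cell clones differed between MLN and lung was tested as an interaction over 8 sums, which include the 4 MLN sums used above. Of 10280 genes, 40 had a different contrast (0.389%), 25 with a higher value in the MLN and 15 with a lower one. The difference had the same sign in both mice for 37 of the 40, the exceptions being Gzmb, Myo6 and Ccl1, against 49.8% of all tested genes. Here too the calls were made on these same mice, so the agreement is no independent check. For 29 of the 40, and not for 11, the MLN contrast of both mice itself had the sign of the difference. DESeq2 called 11, the fit without the library block 0 (233 at an unadjusted p under 0.05), and leaving out 1 library at a time 44 to 69. Tcf7 was at 578 and 592 (expanded and single-cell clones) and at 622 and 585 in the MLN but at 85.6 and 159.5 and at 104 and 175 in the lung, with expanded cells lower in both lungs (difference of log2 fold changes 0.86 ± 0.12, adjusted p = 0.000181). Ccr7 was lower in expanded cells of both organs, and more so in the lung (14.4 and 112, 15.6 and 109, difference 1.78 ± 0.28, adjusted p = 0.00107). For S100a6, of which lung cells held much in both classes (1491 and 1328, 1437 and 986), the contrast was larger in the MLN (difference 0.52 ± 0.11, adjusted p = 0.0211), but nearly all of this lay in mouse 1, with log2 ratios of 0.96 in MLN and 0.17 in lung, against 0.59 and 0.54 in mouse 2.

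**Figure D5:**
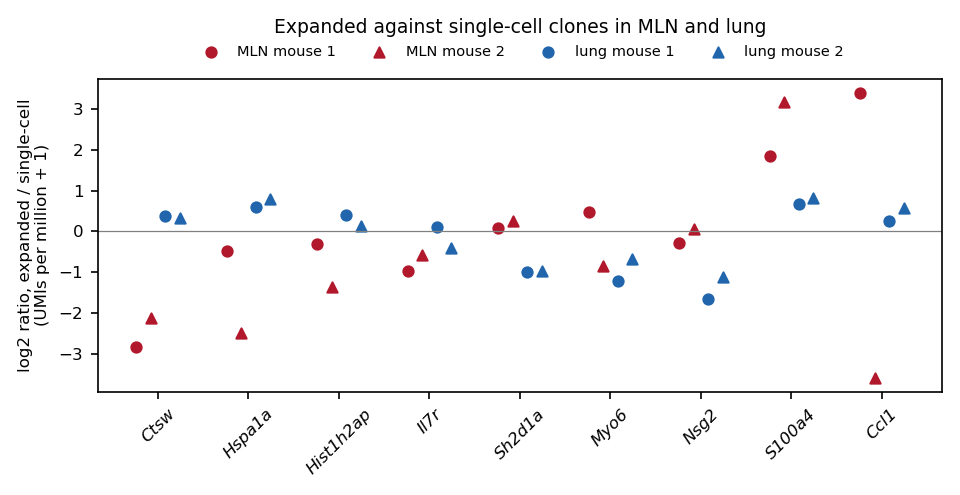
Log2 ratio of expanded to single-cell clones (CPM + 1) for 9 genes, in MLN (red) and lung (blue), with circles for mouse 1 and triangles for mouse 2. Ctsw is below 0 in both MLN points and above 0 in both lung points, Sh2d1a the opposite, and the MLN points of Ccl1 and Myo6 lie on either side of 0.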

How the data were processed

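The authors demultiplexed reads with Cell Ranger 2.1.1 and counted genes and assembled TCR contigs with Cell Ranger 3.0.1 against mm10 (GRCm38), combining both sequencing runs of a library. As deposited by the authors, the values are raw UMI counts, for each gene in each cell and for each TCR contig, without any normalization.

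Of 3013 and 961 deposited MLN barcodes (mouse 1 and mouse 2), 2810 and 899 passed the RNA filters and 2462 and 754 also had a TCR pair. No doublet caller was run. Counts were summed per gene, clone class and mouse after leaving out 268 TCR genes. The sums were tested with edgeR 4.0.16 (filterByExpr, TMM, glmQLFit, glmQLFTest) in R 4.3.3, and genes with a Benjamini-Hochberg adjusted p under 0.05 were called. Cells are not replicates, so n is 2 mice, and DESeq2 1.42.0 was an alternative. The mouse was a block since both classes of a mouse share animal and library, and deviations of the classes from their means correlated at r = 0.19 over 9919 genes. The members, gene lists and tests were chosen with earlier results of these data known.

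Named genes were, at a mean of at least 50 CPM, the 15 with the largest rise and the 15 with the largest fall among called genes that changed the same way in both mice, 26 genes always named (1 of them is not reported here), up to 4 further called members of each of 20 lists and, for the other tests, the 5 largest changes each way. CPM are relative to all UMIs of a sum, without TMM, and per-mouse log2 ratios have a pseudocount of 1. For CDR3 capitals, a base counted as usual when shared by at least 0.6 of 10 or more distinct CDR3s of a segment. Gene positions are from GENCODE annotation of mm10. On simulated data, 78 of 97 genes changed by a log2 fold of 1 and 19 of 98 changed by 0.5 were recovered in the main comparison, with 3 unchanged genes called. The simulated sums were drawn from the fitted model itself, with a spread set by expression level and without clones. These rates therefore do not cover errors that arise where few clones or cells hold most UMIs of a gene.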

Additional observations from a re-analysis of the deposited data

Results flagged for a closer look

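The contrast of expanded with single-cell clones differed between MLN and lung for 40 genes by a test of the difference itself, the interaction of clone class and organ in edgeR's quasi-likelihood test. The named ones are given as the MLN log2 fold change minus that of the lung. For 4 of them the difference was negative. Ctsw differed by -3.40 (adjusted p = 5e-06), with 78.1 and 59.7 CPM in expanded and single-cell clones of lung in mouse 1 and 116 and 91.7 in mouse 2. Hspa1a, a heat shock protein gene, differed by -1.26 (15.2 and 21.7, 0 and 4.595 in the MLN, and 177.5 and 116, 142 and 81.3 in the lung). Hist1h2ap differed by -0.98, with log2 ratios of -0.32 and -1.37 in the MLN and of 0.41 and 0.14 in the lung (mouse 1 and mouse 2). Il7r differed by -0.82, with -0.97 and -0.57 in the MLN and 0.10 and -0.40 in the lung. In mouse 2 Il7r was thus lower in expanded cells of both organs.

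For 5 the difference was positive. Sh2d1a, which encodes the adaptor SAP of T cell help to B cells, differed by 1.15, at 488 and 458 and at 554 and 462 in the MLN but at 44.8 and 89.9 and at 57.2 and 113 in the lung. S100a4 differed by 1.70, higher in expanded cells of both mice in each organ, with lung levels of 289 and 182 in mouse 1 and 335 and 188 in mouse 2. Nsg2, an endosomal protein gene, differed by 1.51, Myo6, a myosin, by 1.31 and Ccl1 by 2.32, but for all 3 the MLN values of mouse 1 and mouse 2 had opposite signs (for Nsg2 -0.29 and 0.07), and Ccl1 turned to -8.06 without MLN replicate 1.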

How the results depend on the processing

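For the named genes called in the main comparison, 672 re-computed values under an alternative kept direction and call, 482 kept only the direction and 8 reversed. Among the 23 alternatives was a filter on novelty (log10 of genes over log10 of UMIs) above 0.8. It removed no cell, so its values repeat the main fit and are no check, though they count among the 672. Against 75 genes in the main comparison, 1 was called with no replicate block (mouse), 6 with DESeq2, 44 with lung and MLN sums in 1 fit, 23 with stricter contigs, 15 for clones of 3 or more cells, 8 with 1 cell per expanded clone, 24 without the largest clone of each mouse, 30 with cells thinned to 2000 UMIs, 28 with equal numbers of cells and 50 to 69 leaving out a mouse. Against 8 genes for clones also in lung, the counts were 2 with no replicate block, 1 with DESeq2, 56 with no filter on low counts, 65 with clones by TCR beta chain alone, 31 with lung sums and 11 to 31 leaving out a mouse. Against 40 for the difference between organs, they were 0 with no replicate block (233 at an unadjusted p under 0.05 in edgeR), 11 with DESeq2, 82 with no filter, 22 with the TCR beta chain alone and 44 to 69 leaving out a library. Lung sums, robust fits and left-out libraries of the last tests were chosen after seeing the data. Of the 75 genes, 21 were called without mouse 1 and 44 without mouse 2, and of the 8, 2 (Lgals1 and Tagln2) and 8. Of the 40, 23 and 37 were called without the MLN of mouse 1 and of mouse 2, and 21 and 38 without their lungs. Leaving out a mouse left out its MLN sums only, and the lung sums of both mice then gave the spread. With an arm of 1 sum, that sum was assumed to vary like the others. The log2 fold changes that reversed were as follows, and the cause was not tested. With no replicate block they were Il13 -0.07, Isg15 0.11 and Tcf7 0.01. With DESeq2 they were Nr4a1 -0.07, Tcf7 0.01 and, for the organs, Ccl1 -0.32, and with its size factors in edgeR Tcf7 0.0029. With 1 cell per clone they were Bcl6 -0.08, Egr2 0.10 and Il13 -1.22. Thinning gave Egr2 0.16 and Tcf7 0.0016, and equal cell numbers Egr2 0.27 and Tcf7 0.02. Clones by amino acid CDR3 gave Tcf7 0.01, and clones by the TCR beta chain Bcl6 -0.11, Hist1h2ae 0.05, Hist1h2ap 0.12 (organs 0.02), Mki67 0.17, Nr4a1 -0.41 and Top2a 0.19. Clones by the chains with the most UMIs gave Egr2 0.05 and Nr4a1 -0.004, and stricter contigs Isg15 0.02 and Tcf7 0.01. MLN-only clones gave S1pr1 -0.26 and Tcf7 0.08, and clones with 2 or more MLN cells Nr4a1 -0.02, S1pr1 -0.15 and Tcf7 0.05. Clones of 3 or more cells gave Cd27 -0.13, Cxcr5 -0.08, Egr2 0.19, Hist1h2ae 0.47, Hist1h2ap 0.59, Il21 -0.86, Mki67 0.20, Nr4a1 -0.18 and Top2a 0.37. Without cells of surplus chains Tcf7 was 0.05, without cycling cells Bcl6 was -0.02 and Isg15 0.06, and without the largest clones Egr2 was 0.02 and Tcf7 0.01. Without mouse 1 and without mouse 2, in that order, the values were Bcl6 -0.06 and 0.09, Egr2 -1.23 and 0.30, Il13 -1.59 and 2.91, Isg15 -0.32 and 0.02, Klf2 0.64 and -1.05, Mki67 0.06 and -0.67, Nr4a1 -0.55 and 0.23, Plac8 -0.69 and 0.96, S1pr1 0.85 and -0.17, and Tcf7 0.07 and -0.05, and the organ difference of Ccl1 ran from -8.06 to 3.48 leaving out a library. The 98 expanded cells of mouse 2 limit depth, since the floor of 3 UMIs is 5.6 CPM there, and a gene that did not pass is not shown to be equal.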

Other observations

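Called genes that the naming rule left out are given here as values, chosen after they were seen. Bcl2, which protects cells from apoptosis, was at 22.9 in expanded and 41.9 in single-cell clones of mouse 1 and at 22.4 and 48.2 in mouse 2 (fell by 0.93, edgeR adjusted p = 0.000691). Srgn, the proteoglycan of secretory granules, was at 1640.0 and 1290.0 and at 1715 and 1314 and rose by 0.35 ± 0.045 (adjusted p = 2.1e-09). Ebi3, a subunit of IL-27 and IL-35, was at 48.6 and 21.3 and at 44.8 and 30.9 (1.00 ± 0.18). Klrg1, a receptor of terminally differentiated T cells, was at 5.53 and 0.972 and at 13.1 and 3.83, from 9 and 3 expanded cells. For each of these genes both mice moved the same way.

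Some receptors recurred across the animals. Of all clones, 2 were found in both mice by nucleotide sequence, 1 of them with 2 MLN cells of mouse 1 and 1 of mouse 2 and the other with 1 MLN cell of each, and neither carried the invariant chain. MLN and lung of mouse 1 shared 8 cell barcodes, MLN of mouse 2 and lung of mouse 1 shared 4, and the MLN libraries shared 1, and no shared barcode had the same clone in both libraries. TRBV5 was used by 4.93% of expanded and 9.15% of single-cell clone chains in mouse 1 and by 7.48% and 12.5% in mouse 2, and TRBV31 by 13.5% and 9.89% but 11.2% and 14.0%, so that the mice differed in direction for the second segment. Chains were counted per cell, so an expanded clone enters these shares once for each of its MLN cells. They are therefore not shares of clones, and no test was made.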
